A study of Mus musculus with 44 samples.

Results

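The sialyltransferases described here are 9 Golgi enzymes that attach sialic acid to the ends of glycan chains, together with Cmas, which makes the activated sialic acid that all of them use. The genes were chosen by symbol, and every probe set annotated to a single one of the 10 symbols was kept, whatever its signal. This gave 21 of the 45037 probe sets tested and 10 of the 18193 gene symbols on the array. St3gal6 has 5 probe sets, St3gal2 has 3, 5 genes have 2 (St8sia4, St6gal1, St3gal1, St3gal3 and St6galnac4), and 3 genes have 1 (St3gal4, St6galnac6 and Cmas). The list itself was chosen by someone who knew how these arrays differ between TCDD, DMSO and untreated cells, so the differences and the number of members called are a description of these arrays and not independent evidence.

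Sialic acids are negatively charged sugars that cap glycoproteins and glycolipids at the cell surface. Each sialyltransferase is known by the sugar it caps and the bond it makes, so a cell's set of these enzymes shapes which lectins can bind it. In B cells the best known such lectin is Cd22, an inhibitory receptor that binds the cap made by St6gal1, and sialylation is also known to affect the binding of selectins and galectins and the activity of secreted antibodies.

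CH12.LX is an established mouse B cell lymphoma line, so all groups share 1 cell line, and the replicates are cultures of it and not animals. The cells were plated at 100000 per ml and activated with lipopolysaccharide (LPS) of Salmonella typhosa. TCDD cells received the dioxin TCDD (2,3,7,8-tetrachlorodibenzo-p-dioxin) at 10 nM, a ligand of the aryl hydrocarbon receptor, and DMSO cells received the vehicle, dimethyl sulfoxide, at 0.01%; both were harvested at 8, 12, 24, 36 and 48 h. Cells at 0 h were untreated. Each of the 11 groups has 4 replicates, and each replicate number stands for a separate day. Differences between DMSO cells and untreated cells therefore hold LPS, vehicle and time in culture together, which cannot be told apart.

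Levels are log2(signal + 16) after quantile normalisation, a scale on which the lowest possible value is 4 and which understates the change of dim probe sets. A difference was called where limma's adjusted p, taken over all 45037 probe sets of a comparison, was below 0.05, and errors of differences are limma's standard errors with 4 arrays per group. A probe set is termed dim where its highest group mean lay at or below 6.21, the median of all values. No gene's level was set against that of another gene. The labels of the TCDD cells were checked with Cyp1a1, the main target gene of the receptor: its level was 13.37 ± 0.06 in TCDD cells at 8 h and 8.16 ± 0.25 in DMSO cells at 8 h (SD, n = 4 each), and the difference was between 4.50 and 6.01 at the 5 times. Cyp1a1 was also called higher in DMSO than in untreated cells at 8 h (2.15, limma adjusted p = 1.37e-10) and 12 h (2.40, 7.95e-12), and not later. All 8 measured B cell markers were above the dim level. Of the markers of other cells, 3 of 5 measured T cell genes (Cd3e, Cd3g and Cd8a, but not Cd3d and Cd4), 4 of 6 macrophage genes (Adgre1, Csf1r, Cd68 and Cd14, but not Lyz2 and Itgam), 2 of 4 fibroblast genes (Col1a1 and Col1a2, but not Col3a1 and Dcn) and 0 of 2 erythroid genes were above the dim level. Csf1r and Cd68 reached group means of 10.64 and 10.67, Cd8a 9.38 and Adgre1 9.21, and the others above the dim level at most 6.77. 4 arrays stood apart in technical measures. Median signal, 45.2 at its lowest, was highest in DMSO 12 h replicate 4 (87.9) and untreated 0 h replicate 4 (99.2). The 3' to 5' log2 ratio of the transferrin receptor control had a median of 1.18 and was highest in DMSO 48 h replicate 2 (2.85) and untreated 0 h replicate 3 (3.04).

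St8sia4 and St6gal1 are the members called lower in TCDD cells than in DMSO cells from 24 h on, and their promoters are shown for that reason. RefSeq windows of 300 bases, 250 before and 50 after an annotated start on GRCm38.p6, were found for 8 of the 10 genes (11 windows). They were searched for GCGTG, the core of the binding motif of the aryl hydrocarbon receptor, on either strand, which reads CACGC on the other strand. The core stands in capitals in the sequences below, which run 5' to 3' on the strand of the gene. The St8sia4 window is chr1:95667545-95667844 on the minus strand and has 1 core, whose first base lies at -159 from the start. The first St6gal1 window is chr16:23224490-23224789 on the plus strand, with 1 core on the other strand at -61, and a further start of St6gal1 has the window chr16:23290220-23290519, with 1 core at -198.
St8sia4: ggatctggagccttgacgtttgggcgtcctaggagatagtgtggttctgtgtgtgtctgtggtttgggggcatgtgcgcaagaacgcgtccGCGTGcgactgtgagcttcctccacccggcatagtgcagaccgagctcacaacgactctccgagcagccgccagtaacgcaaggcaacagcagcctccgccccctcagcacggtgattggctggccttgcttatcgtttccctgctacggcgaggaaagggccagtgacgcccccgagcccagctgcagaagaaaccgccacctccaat
St6gal1, first start: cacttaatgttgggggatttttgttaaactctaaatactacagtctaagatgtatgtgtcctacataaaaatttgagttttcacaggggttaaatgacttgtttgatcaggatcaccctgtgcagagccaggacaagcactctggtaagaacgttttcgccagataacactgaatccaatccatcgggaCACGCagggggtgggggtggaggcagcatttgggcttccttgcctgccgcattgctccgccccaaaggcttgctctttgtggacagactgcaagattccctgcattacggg
St6gal1, further start: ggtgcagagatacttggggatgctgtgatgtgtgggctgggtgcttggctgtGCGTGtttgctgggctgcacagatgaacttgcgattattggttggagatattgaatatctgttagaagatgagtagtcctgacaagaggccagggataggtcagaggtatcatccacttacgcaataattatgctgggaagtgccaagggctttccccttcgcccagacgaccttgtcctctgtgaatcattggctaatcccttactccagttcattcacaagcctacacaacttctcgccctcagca

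The remaining St6gal1 window, chr16:23225771-23226070, holds no core. Of the 11 member windows 7 hold a core (63.6%), against 32.4% of the 32851 windows of all genes. A core is not particular to St8sia4 and St6gal1: the windows of St3gal3 (2 cores), St3gal4 (1), St6galnac4 (2) and Cmas (2) hold it too. The member windows had between 38.7% and 74.0% G and C, and the shares were not matched for this. The longer motif TNGCGTG, which overlaps the core, was found in 0 member windows and in 5.07% of all windows. These matches describe the sequence only, and binding was not measured here.

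The first question was what TCDD did to the level of these genes in activated cells. At 36 and 48 h the largest differences among the members were those of St8sia4, the polysialyltransferase known for building long sialic acid chains on a few carrier proteins. At probe set 1419186_a_at, the arrays of TCDD cells and DMSO cells overlapped at 8 and 12 h and then parted. TCDD cells were lower from 24 h on, with differences from DMSO cells of -1.26 ± 0.18 at 24 h, -1.73 ± 0.18 at 36 h and -1.56 ± 0.18 at 48 h, that is 2.39-fold, 3.32-fold and 2.94-fold lower. The St8sia4 levels at 24 h were 10.24, 10.16, 10.01 and 10.33 in TCDD cells and 11.61, 11.47, 11.21 and 11.46 in DMSO cells. At 36 h they were 9.68, 9.76, 9.28 and 9.60 in TCDD cells and 11.55, 11.67, 10.83 and 11.20 in DMSO cells. At 48 h they were 9.78, 9.67, 9.06 and 9.27 in TCDD cells and 11.03, 11.23, 10.70 and 11.04 in DMSO cells. At each of these 3 times every TCDD array lay below every DMSO array, on all 4 days. The adjusted p of limma was 1.44e-05 at 24 h, 6.89e-08 at 36 h and 5.20e-07 at 48 h, and the calls held under each of the 23 alternatives.

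Before the groups parted, St8sia4 levels at 8 h were 10.44, 10.10, 10.14 and 9.88 in TCDD cells and 10.14, 9.91, 9.63 and 9.56 in DMSO cells. At 12 h they were 10.82, 10.68, 10.76 and 10.65 in TCDD cells and 10.91, 10.49, 10.55 and 10.48 in DMSO cells. The groups overlapped at both times, with differences of 0.33 (95% interval -0.04 to 0.70) and 0.12 (-0.25 to 0.49). Within days St8sia4 was higher in TCDD cells on 4 of 4 days at 8 h and on 3 of 4 at 12 h; neither was called, also with the day as a block (adjusted p = 0.305 and 0.781). Whether the difference between TCDD and DMSO cells varied with time was tested with limma's F test of 4 interaction contrasts, and St8sia4 was called with an adjusted p of 1.75e-06, as were 1.46% of all probe sets.

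In DMSO cells St8sia4 was higher than in untreated cells from 12 h on. The untreated levels were 10.10, 9.50, 9.48 and 9.11, and all DMSO arrays from 12 h on lay above them. The differences of DMSO cells from untreated cells were 0.26, 1.06, 1.89, 1.77 and 1.45 at 8, 12, 24, 36 and 48 h (SE 0.18 each), and those from 12 h on were called, with adjusted p between 1.06e-09 and 6.44e-05 in limma. Over the 11 groups the mean level was lowest in TCDD cells at 48 h (9.44) and in untreated cells (9.55), and highest in DMSO cells at 24 h (11.44). The 4 TCDD arrays at 48 h ran from 9.06 to 9.78 and overlapped the untreated arrays, which ran from 9.11 to 10.10. In that order only TCDD cells at 24 h and the next group, DMSO cells at 12 h, had arrays that did not overlap. The DMSO arrays enter both kinds of difference, so the 2 are not independent of each other.

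The other St8sia4 probe set, 1430391_a_at, was also lower in TCDD than in DMSO cells at 24, 36 and 48 h, with smaller differences. Its early groups ran in another order: the lowest mean was that of DMSO cells at 8 h (6.79), below untreated cells (7.30), a difference of -0.50 that was not called. At 36 h its levels were 7.31, 6.99, 6.75 and 6.86 in TCDD cells and 7.96, 8.13, 7.89 and 8.23 in DMSO cells, a difference of -1.08 ± 0.24 (limma adjusted p = 0.0104), and the groups did not overlap. That call was lost without day 2 (-1.06), day 3 (-1.05), day 4 (-0.98) or TCDD 36 h replicate 3 (-1.0). Its differences of -0.78 at 24 h and -0.80 at 48 h were not called (limma adjusted p = 0.0952 and 0.0730) and were called with the day as a block (0.0352 and 0.0275). In DMSO cells it was higher than in untreated cells by 0.80, 0.76 and 0.72 at 24, 36 and 48 h, all called, but these were lost without the 4 arrays standing apart (0.49, 0.45 and 0.54) and in 8 or 9 of the 12 settings that left out 1 array or 1 day, where they lay between 0.39 and 0.90. Its interaction call (adjusted p = 0.0214) was lost without day 2 (0.241), day 3 (0.369), day 4 (0.227) and 3 single arrays, DMSO 8 h replicates 3 and 4 and TCDD 8 h replicate 1 (0.0539 to 0.0559).

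St6gal1, which caps the galactose ends of N-glycans with the sialic acid linkage that Cd22 binds, had the widest span of group means among the 21 probe sets, at 1420928_at. At probe set 1420928_at it was lower in TCDD than in DMSO cells from 24 h on, with differences of -1.38 ± 0.21 at 24 h, -1.58 ± 0.21 at 36 h and -1.30 ± 0.21 at 48 h, that is 2.60-fold, 2.99-fold and 2.46-fold lower. The levels at 24 h were 9.30, 9.85, 9.91 and 10.35 in TCDD cells and 10.82, 11.22, 11.29 and 11.59 in DMSO cells. At 36 h they were 10.21, 10.28, 10.32 and 10.93 in TCDD cells and 11.88, 12.22, 11.80 and 12.17 in DMSO cells. At 48 h they were 9.95, 10.12, 10.04 and 10.83 in TCDD cells and 11.22, 11.73, 11.15 and 12.02 in DMSO cells. All TCDD arrays lay below all DMSO arrays at each of the 3 times. The adjusted p of limma was 4.27e-05, 6.59e-06 and 0.000177 at 24, 36 and 48 h, and only the call at 48 h was lost under an alternative, the fit of the arrays compared alone.

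In DMSO cells St6gal1 rose late at both probe sets and fell early at 1420928_at alone, the difference at 8 h being -0.03 at 1420927_at. At 1420928_at its differences from untreated cells were -0.98 ± 0.21 at 8 h (limma adjusted p = 0.00155), 0.16 ± 0.21 at 12 h (not called) and 2.56, 3.35 and 2.87 at 24, 36 and 48 h, that is 5.91-fold, 10.2-fold and 7.29-fold higher, with adjusted p between 1.94e-14 and 2.77e-11. The untreated levels were 8.64, 8.55, 8.52 and 8.96. The DMSO levels were 7.70, 7.97, 7.39 and 7.70 at 8 h and 8.72, 9.03, 8.53 and 9.01 at 12 h. All 4 DMSO arrays were thus below all untreated arrays at 8 h, overlapped them at 12 h and were above them later. TCDD cells had 7.69, 7.48, 7.18 and 7.68 at 8 h and 8.71, 8.86, 8.46 and 8.48 at 12 h, overlapping DMSO cells at both times (differences of -0.18, 95% interval -0.61 to 0.25, and -0.19, -0.63 to 0.24). Within days it was lower in TCDD cells on 4 of 4 days at both times, and was not called with the day as a block (adjusted p = 0.816 and 0.657). In TCDD cells all arrays from 24 h on also lay above the untreated arrays, a difference that was not tested. The call at 8 h was lost when a gene's probe sets were averaged (-0.50). The interaction was called (limma adjusted p = 0.00340), but not without day 1 (0.0895), day 2 (0.229) or day 3 (0.0966).

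At the second St6gal1 probe set, 1420927_at, TCDD cells differed from DMSO cells by -1.30 ± 0.34 at 24 h and -1.34 ± 0.34 at 36 h, and the groups did not overlap. These calls had limma adjusted p of 0.0288 and 0.0312 and were each lost in 9 of the 12 settings that left out 1 array or 1 day, with differences between -1.36 and -1.04. Both were also lost with values as deposited (-1.29 and -1.29), with a pseudocount of 1 (-1.37 and -1.39) and with only the arrays compared. At 48 h the levels were 7.20, 7.64, 7.56 and 8.50 in TCDD cells and 8.26, 7.40, 9.13 and 9.51 in DMSO cells. The low DMSO array, replicate 2, is one of those standing apart. The difference was -0.85 (not called, adjusted p = 0.244), and it was -1.24 and called without that array. Its differences of DMSO from untreated cells, 2.41, 2.94 and 1.99 at 24, 36 and 48 h, were called under all alternatives. Over the 11 group means the 2 St6gal1 probe sets correlated with a Pearson r of 0.972 and the 2 St8sia4 probe sets with 0.904, and St8sia4 1419186_a_at correlated with St6gal1 1420928_at with 0.520. These values describe 11 groups that share cultures of 1 line and days.

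**Figure D1:**
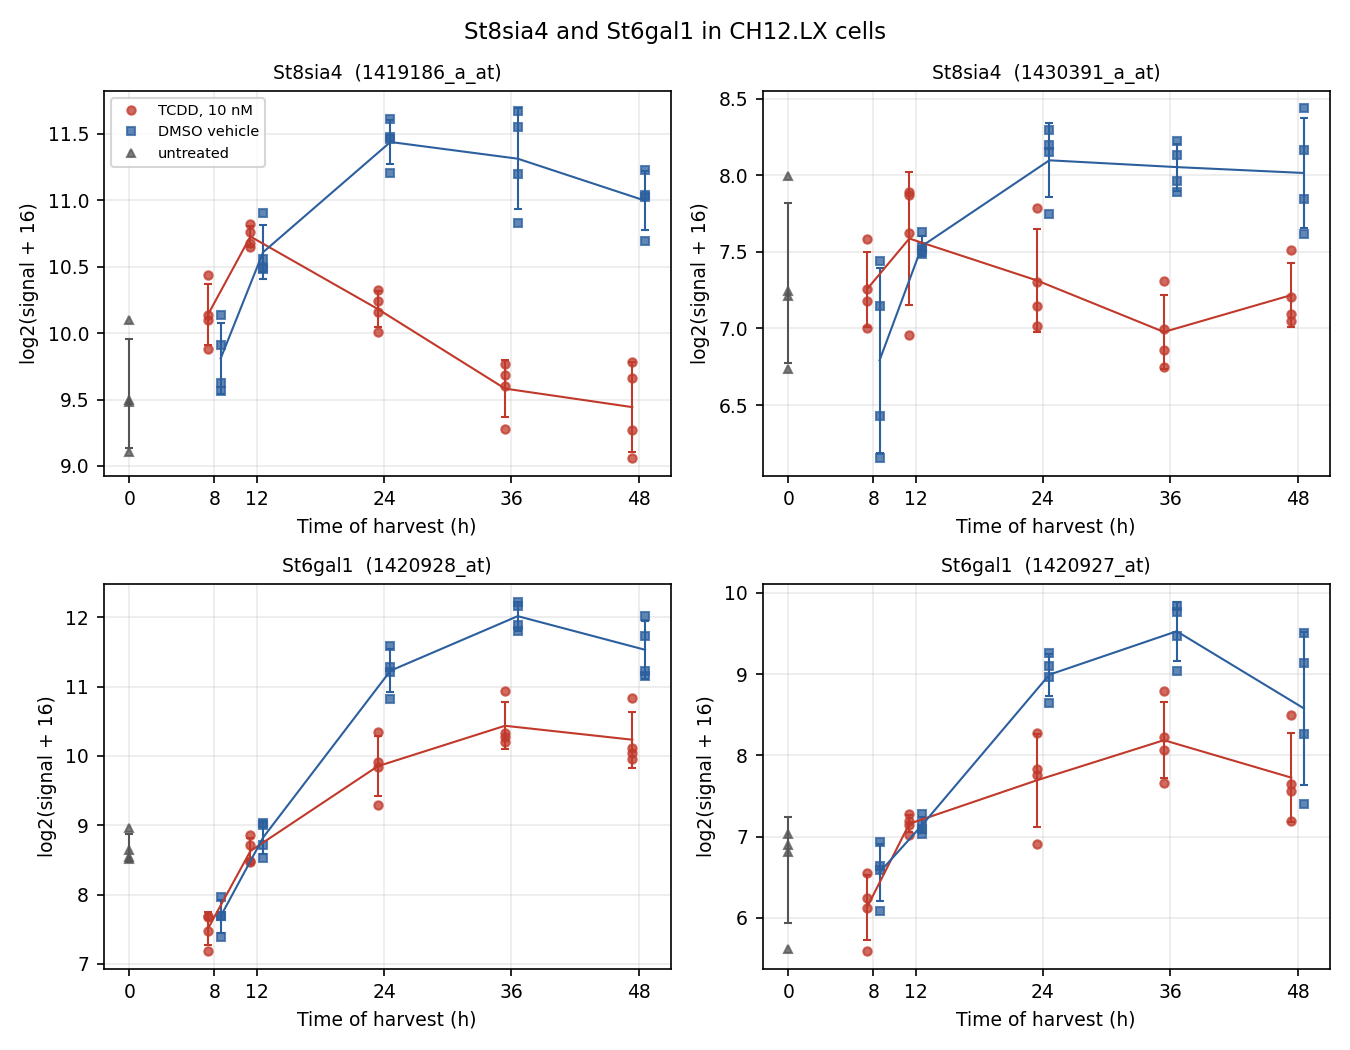
Level, as log2(signal + 16), of both probe sets of St8sia4 and St6gal1 against time of harvest in hours; points are single arrays, lines join group means and bars are SD (n = 4) for TCDD cells (circles), DMSO cells (squares) and untreated cells (triangles). TCDD and DMSO cells overlap at 8 and 12 h at 1419186_a_at and 1420928_at and lie apart from 24 h on.

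Marker genes of other cell states differed between TCDD and DMSO cells as well. Summed over the 5 plasma cell genes (Sdc1, Prdm1, Jchain, Xbp1 and Irf4, all above the dim level), the signal at 24 h ran from 16933 to 18288 in TCDD cells and from 17884 to 20082 in DMSO cells, which overlapped. At 36 h it ran from 17297 to 19340 in TCDD cells and from 21789 to 22885 in DMSO cells, and at 48 h from 18712 to 19743 in TCDD cells and from 23655 to 24943 in DMSO cells, against 13895 to 16761 in untreated cells. This sum gives most weight to the brightest genes, Xbp1 and Irf4. By the mean log2 level of the 5 genes the groups also overlapped at 24 h. They were apart at 36 h (10.35 to 10.64 in TCDD cells, 10.71 to 11.02 in DMSO cells) and 48 h (10.37 to 10.65 and 10.77 to 11.04). Of the 5 genes 1 was called higher in TCDD cells at 8 h (0.753% of all probe sets) and 1 higher (1.6%) and 1 lower (0.677%) at 12 h. At 24 h 0 were called (2.03% of all), at 36 h 1 lower (0.415%) and at 48 h 2 lower (1.12%).

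The summed signal of the 6 macrophage genes did not overlap between TCDD and DMSO cells from 8 to 36 h. It ran from 2854 to 3228 in TCDD cells and from 1750 to 2007 in DMSO cells at 8 h, and from 3000 to 3379 in TCDD cells and from 1582 to 1748 in DMSO cells at 12 h. At 24 h it ran from 2499 to 2881 in TCDD cells and from 1242 to 1452 in DMSO cells, and at 36 h from 2266 to 2507 in TCDD cells and from 1439 to 1678 in DMSO cells. At 48 h the groups overlapped, with 2411 to 2833 in TCDD cells and 2061 to 2629 in DMSO cells. A sum gives most weight to the brightest genes, here Csf1r and Cd68. From untreated cells to the highest group, mean levels went from 7.65 to 10.64 for Csf1r and from 10.23 to 10.67 for Cd68. The dim Lyz2 went from 4.78 to 6.08. How far 1 gene made the sums differ was not tested, and calls of single macrophage genes were not counted. By the mean log2 level of the 6 genes the groups overlapped at 8 h (7.37 to 7.91 in TCDD cells, 7.15 to 7.62 in DMSO cells). At 48 h that mean did not overlap (7.59 to 7.90 and 7.28 to 7.55). The times at which the groups lie apart thus depend on the summary used. The part of either marker list in the results was not tested. In whole cultures, fewer cells making a transcript and less of it per cell cannot be told apart.

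The enzymes that cap galactose through the other common linkage, St3gal1, St3gal2, St3gal3, St3gal4 and St3gal6, behaved differently from one another. St3gal1, which caps the simplest O-glycan, differed between DMSO and untreated cells and showed no called difference with TCDD. At 1418946_at its untreated levels were 8.29, 8.17, 8.08 and 8.23, and every DMSO array was above these at every time. The differences of DMSO from untreated cells were 1.22, 0.95, 0.42, 0.99 and 1.69 at 8, 12, 24, 36 and 48 h (SE 0.14 each). All but that at 24 h were called in limma (adjusted p between 1.13e-11 and 6.49e-06), and 24 h was called with the day as a block (adjusted p = 0.0121, against 0.0674). The level was thus high early, nearest to the untreated level at 24 h, and highest at 48 h, where it was 9.93, 9.89, 9.76 and 9.45 in TCDD cells and 10.22, 9.91, 9.82 and 9.58 in DMSO cells.

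The St3gal1 differences of TCDD from DMSO cells lay between -0.23 and 0.07 at 1418946_at, and their 95% intervals between -0.52 and 0.36 at all 5 times. The second St3gal1 probe set, 1441216_at, lay near the dim level (group means 5.76 to 6.76) and had no call. Averaging the 2 probe sets left differences of DMSO from untreated cells of 0.62, 0.32 and 0.26 at 8, 12 and 36 h that were not called, and turned that at 24 h to -0.14.

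St3gal2, which caps the galactose of O-glycans and of gangliosides, was higher in TCDD than in DMSO cells at all 3 probe sets. Over the 15 combinations of probe set and time the differences were between 0.21 and 0.73, and in 14 of them TCDD was higher on all 4 days. The 3 probe sets measure the same gene on the same arrays and are not replicates. At 1421891_at the levels at 12 h were 9.15, 9.68, 9.17 and 9.22 in TCDD cells and 8.39, 8.69, 8.76 and 8.91 in DMSO cells, and at 48 h they were 10.02, 10.41, 10.09 and 10.09 in TCDD cells and 9.19, 9.67, 9.62 and 9.78 in DMSO cells. The groups did not overlap at either time. These differences were 0.62 ± 0.16 and 0.58 ± 0.16 (limma adjusted p = 0.0236 and 0.0352), and at 24 h it was 0.47 (0.150, and 0.0133 with the day as a block).

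At St3gal2 probe set 1421892_at the differences called were 0.67 ± 0.18 at 24 h and 0.66 ± 0.18 at 48 h (limma adjusted p = 0.0370 and 0.0393), and at 1421890_at the difference of 0.73 ± 0.21 at 48 h was called with the day as a block (0.00561, against 0.0572). All 4 calls of St3gal2 lay near the threshold. Leaving out 1 array or 1 day ended them in 6, 11, 9 and 10 of 12 cases, in the order given, with differences between 0.46 and 0.77. Each was kept with the day as a block. Both calls at 48 h were also lost with values as deposited (0.56 and 0.63), and all 4 with only the arrays compared. Between DMSO and untreated cells St3gal2 had 1 call, -0.52 at 12 h at 1421891_at (limma adjusted p = 0.0280). It was lost in 7 of 12 such cases (-0.52 to -0.42) and without the 4 arrays standing apart (-0.41), and at 48 h the difference of 0.36 was called with the day as a block (0.0218, against 0.119).

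St3gal3, which caps galactose on N-glycans, had 1 call. At 12 h 1421915_a_at had levels of 7.37, 7.45, 7.35 and 7.52 in TCDD cells and 6.79, 6.88, 6.87 and 5.97 in DMSO cells. The groups did not overlap, and the fourth DMSO array, one of those standing apart, lay far below the others. The difference was 0.80 ± 0.22 (limma adjusted p = 0.0495). It was 0.57 and not called without that array, and was lost in 11 of 12 settings that left out an array or a day. The call was also lost with values as deposited (0.74), a pseudocount of 1 (0.91), an intensity trend and only the arrays compared. The other St3gal3 probe set, 1450406_a_at, differed by 0.23 at 12 h and had no call. St3gal4, which works on the same kind of chain and is known for selectin ligands, had no call: its differences of TCDD from DMSO cells lay between -0.29 (8 h) and 0.34 (36 h), and at 36 h the levels were 7.79, 7.67, 7.62 and 7.65 with TCDD and 7.26, 7.45, 7.41 and 7.24 with DMSO, which did not overlap (0.34, 95% interval 0.08 to 0.60, limma adjusted p = 0.294). At 8 h St3gal4 levels did not overlap in the opposite direction, with 7.63, 7.65, 7.78 and 7.70 in TCDD cells and 7.81, 7.85, 8.22 and 8.05 in DMSO cells (-0.29, 95% interval -0.56 to -0.03, limma adjusted p = 0.512).

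St3gal6, a further enzyme of N-glycan and selectin ligand capping, gave different answers at its 5 probe sets. Over its 25 combinations of probe set and time, which share arrays, 18 differences of TCDD from DMSO cells were positive. TCDD was higher on all 4 days in 12 of them and lower in 0. At the brightest, 1449078_at and 1449079_s_at (Pearson r of 0.926 over group means), the mean was higher in TCDD cells at all 5 times. Limma called only the differences given as such below. At 1449078_at DMSO cells were above untreated cells by 0.63, 0.71 and 0.57 at 24, 36 and 48 h (limma adjusted p = 0.00589, 0.00111 and 0.00596). The untreated levels were 11.36, 11.33, 10.57 and 10.96, and replicate 3, the lowest, is one of the arrays standing apart. Without it the differences at 24 and 48 h were 0.47 and 0.40 and no longer called, and without all 4 such arrays all 3 were lost (0.34, 0.42 and 0.34), as they were when the gene's probe sets were averaged (0.13, 0.18 and 0.12). They were also lost without day 4 at 24 h (0.53) and 48 h (0.49) and without day 3 at 24 h (0.45). At 12 h the difference of TCDD from DMSO cells was 0.48 and was called with the day as a block (adjusted p = 0.0331, against 0.109).

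At 1454246_at St3gal6 was lower in DMSO than in untreated cells early, with differences of -1.06 at 8 h and -0.89 at 12 h (limma adjusted p = 2.25e-06 and 3.89e-05). The levels at 8 h were 8.77, 8.89, 8.51 and 8.71 in DMSO cells and 10.18, 9.80, 9.75 and 9.37 in untreated cells. TCDD cells at 8 h had 9.35, 9.31, 9.33 and 9.25, so their arrays lay between those 2 groups and overlapped neither. The difference of TCDD from DMSO cells was 0.59 ± 0.15 (limma adjusted p = 0.0381), and it was lost in 11 of 12 settings that left out an array or a day (0.51 to 0.64). The probe sets 1449078_at and 1449079_s_at showed no such early fall (0.05 and -0.22 at 8 h).

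At 1449079_s_at St3gal6 had a DMSO difference of 0.50 at 36 h (limma adjusted p = 0.00332), lost without day 3 (0.37), and was higher in TCDD than in DMSO cells by 0.48 ± 0.12 at 48 h (0.0207). The levels at 48 h were 11.50, 11.52, 11.24 and 11.54 in TCDD cells and 10.98, 10.65, 11.23 and 11.01 in DMSO cells, which were apart by a narrow margin. Without DMSO 48 h replicate 2 this was 0.37 and not called, and it was lost in 7 of 12 such settings in all (0.35 to 0.47). The calls at 36 and 48 h were also lost with only the arrays compared. At 24 h the difference of 0.40 was called with the day as a block (0.0366, against 0.0793). The probe set 1447841_x_at had no call, and 1443740_at, the only dim member, had group means between 4.13 and 4.78.

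**Figure D2:**
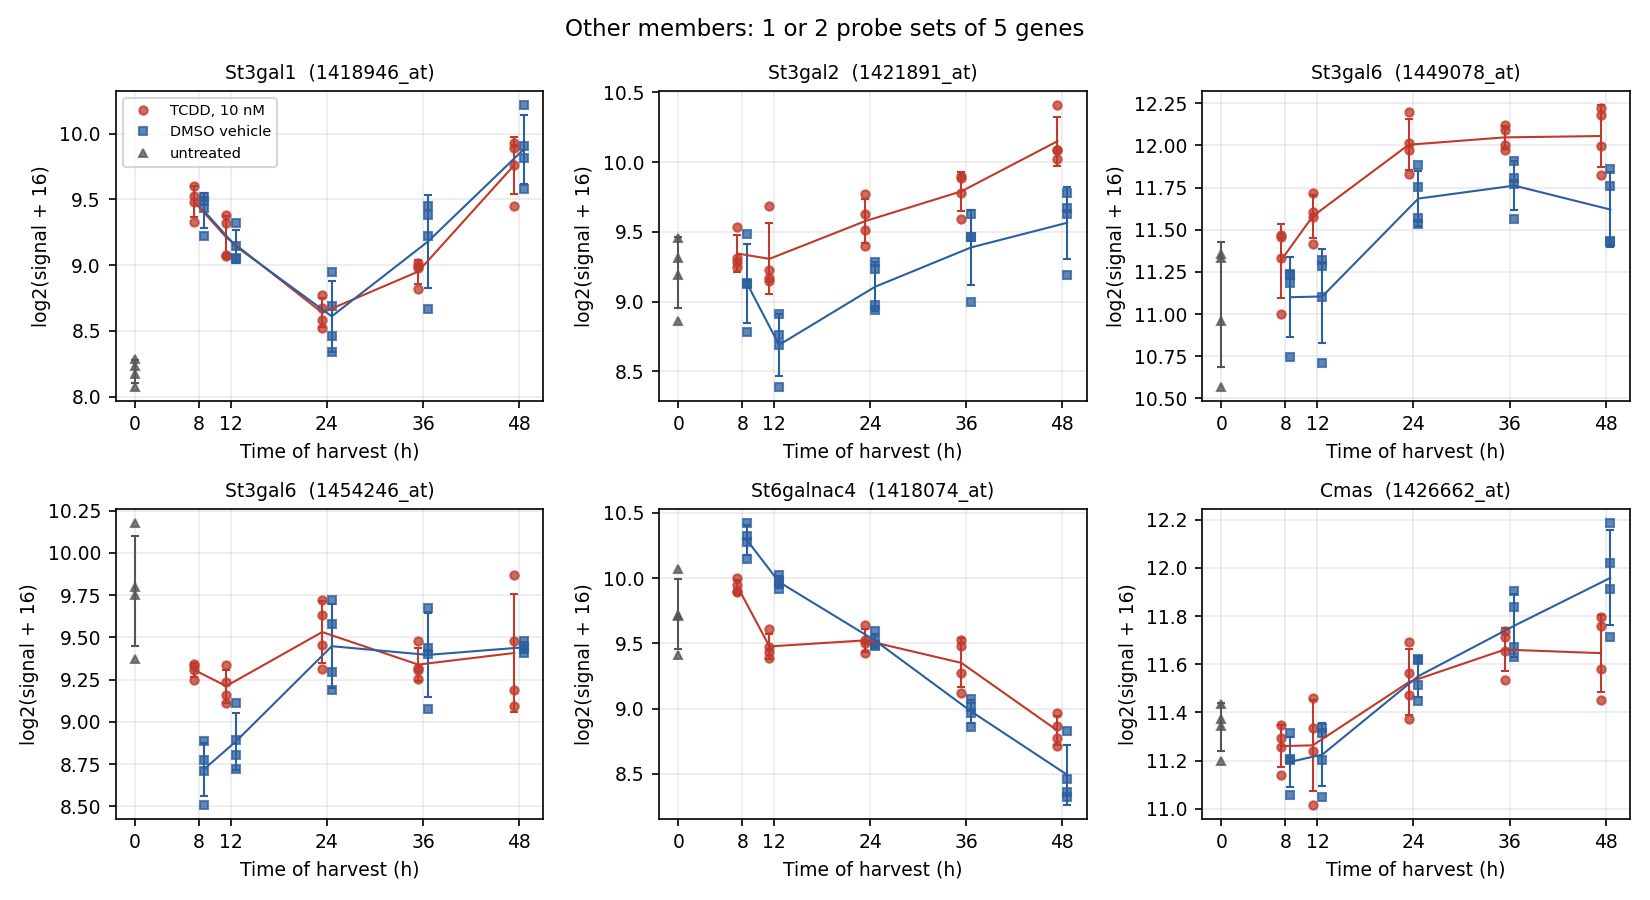
Level, as log2(signal + 16), of 6 probe sets of St3gal1, St3gal2, St3gal6, St6galnac4 and Cmas against time of harvest in hours; points are single arrays, lines join group means and bars are SD (n = 4) for TCDD cells (circles), DMSO cells (squares) and untreated cells (triangles). At St6galnac4 1418074_at TCDD cells lie below DMSO cells at 12 h (difference -0.49) and above them at 36 h (0.37).

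St6galnac4 and St6galnac6 add a further sialic acid to chains that already carry sialic acid, St6galnac4 mainly on short O-glycans and St6galnac6 mainly on gangliosides. Both lie on chromosome 2 with 2 other genes starting between them. St6galnac4 first rose and then fell in DMSO cells: at 1418074_at its differences from untreated cells were 0.57 ± 0.11 at 8 h, -0.74 ± 0.11 at 36 h and -1.23 ± 0.11 at 48 h (limma adjusted p = 0.000346, 3.93e-06 and 4.24e-11). The levels in DMSO cells were 10.32, 10.42, 10.27 and 10.15 at 8 h and 8.46, 8.83, 8.33 and 8.36 at 48 h, against 9.41, 9.72, 10.07 and 9.71 in untreated cells. Neither DMSO group overlapped the untreated arrays. The call at 8 h was lost with only the arrays compared. The second probe set, 1418075_at, had differences of -0.37 at 36 h and -0.65 at 48 h (0.0390 and 7.32e-05); its call at 36 h was lost in 8 of 12 settings that left out an array or a day (-0.40 to -0.25).

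With TCDD St6galnac4 took another course. At 1418074_at the TCDD difference was -0.35 at 8 h, -0.49 at 12 h, 0.00 at 24 h, 0.37 at 36 h and 0.34 at 48 h (SE 0.11 each). At 12 h the levels were 9.43, 9.38, 9.61 and 9.48 in TCDD cells and 9.96, 9.98, 10.03 and 9.92 in DMSO cells, which did not overlap. At 36 h they were 9.27, 9.12, 9.48 and 9.53 in TCDD cells and 9.01, 8.97, 8.86 and 9.07 in DMSO cells, which did not overlap either, in the opposite direction. The difference at 12 h was called (limma adjusted p = 0.00640), and was not without day 1 (-0.48), day 2 (-0.46) or day 4 (-0.51). It was also not called with only the arrays compared. The difference at 36 h was called with the day as a block (0.0497, against 0.0921). The interaction with time was called (adjusted p = 0.000630), though not without day 4 (0.0689).

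At 1418075_at the St6galnac4 differences of TCDD from DMSO cells ran the same way, -0.30 at 8 h, -0.26 at 12 h and 0.31 at 48 h, and each was called with the day as a block (adjusted p = 0.0165, 0.0340 and 0.00784, against 0.402, 0.380 and 0.225). The interaction was likewise called with the block (0.000179, against 0.0963). The DMSO differences of 0.26 at 8 h and 0.23 at 12 h from untreated cells were called with the block as well (0.0124 and 0.0312, against 0.211 and 0.294).

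St6galnac6 had no called difference between TCDD and DMSO cells, with differences between -0.20 and 0.38. In DMSO cells its level was lower than in untreated cells, with differences of -0.83 ± 0.25 at 8 h and -0.76 ± 0.25 at 12 h (limma adjusted p = 0.0291 and 0.0497). The untreated arrays, 8.26, 7.57, 8.66 and 9.22, were widely spread and the 2 highest are arrays standing apart; without the 4 such arrays the differences were -0.31 and -0.40 and were not called. The calls were lost in 7 and 8 of 12 settings that left out an array or a day, and both with only the arrays compared. That at 12 h was also lost with values as deposited (-0.80) and with a pseudocount of 1 (-0.80).

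Cmas, which couples sialic acid to the nucleotide carrier that every sialyltransferase takes it from, rose late in DMSO cells, by 0.42 ± 0.11 at 36 h and by 0.62 ± 0.11 at 48 h over untreated cells (limma adjusted p = 0.00475 and 1.93e-05). The levels at 48 h were 11.79, 11.76, 11.58 and 11.45 in TCDD cells and 12.02, 12.18, 11.71 and 11.91 in DMSO cells, against 11.44, 11.34, 11.37 and 11.20 in untreated cells. DMSO cells were above all untreated arrays, and TCDD cells overlapped DMSO cells while lying below them on all 4 days. The TCDD difference of -0.31 ± 0.11 at 48 h was called with the day as a block (0.00408, against 0.128), as was the DMSO difference of 0.21 at 24 h (0.0402, against 0.280). The call at 36 h was lost without day 2 (0.40), without the 4 arrays standing apart (0.37) and with only the arrays compared.

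Counted over the 21 probe sets, a difference between TCDD and DMSO cells was called for 1 at 8 h, where 1.03% of all probe sets were called, for 3 at 12 h (2.28% of all), for 4 at 24 h (2.03%), for 4 at 36 h (1.34%) and for 5 at 48 h (2.36%). The 1 call at 8 h was higher in TCDD cells (0.753% of all probe sets were called higher and 0.282% lower). At 12 h 2 were higher (1.6% of all) and 1 lower (0.677%), and at 24 h 1 was higher (1.47%) and 3 lower (0.56%). At 36 h 0 were higher (0.921%) and 4 lower (0.415%), the 4 being both probe sets of St8sia4 and of St6gal1. At 48 h 3 were higher (1.24%), St3gal2 at 2 probe sets and St3gal6 at 1, and 2 were lower (1.12%). The calls came from 1, 3, 3, 2 and 4 genes at 8, 12, 24, 36 and 48 h. With the day as a block the counts were 2 (2.03% of all), 5 (4.38%), 7 (3.66%), 5 (2.78%) and 9 (4.46%).

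The arrays of TCDD and DMSO cells did not overlap for 5, 5, 6, 9 and 6 of the 21 probe sets at the 5 times, against 5.99%, 7.24%, 8.4%, 7.36% and 6.63% of all probe sets. The median difference of the 21 was 0.21, 0.12, 0.10, 0.20 and -0.03, and that of all probe sets between -0.02 and 0.00. The interaction with time was called for 4 of the 21, against the 1.46% given above, and for 5 with the day as a block (3.68% of all).

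Differences of DMSO from untreated cells were called for 5 of the 21 at 8 h (9.66% of all probe sets), 5 at 12 h (10%), 5 at 24 h (7.63%), 10 at 36 h (12.3%) and 9 at 48 h (19.3%). At 8 h 2 were higher (4.96% of all) and 3 lower (4.71%), and at 12 h 2 were higher (4.88%) and 3 lower (5.12%). At 24 h 5 were higher (4.01%) and 0 lower (3.62%). At 36 h 8 were higher (6.08%) and 2 lower (6.19%), and at 48 h 7 were higher (9.54%) and 2 lower (9.75%). More probe sets were thus called higher than lower at the late times, but probe sets of the same gene are not replicates. These calls came from 5, 5, 3, 6 and 6 genes at 8, 12, 24, 36 and 48 h. The 2 lower probe sets at 36 h and at 48 h were both of St6galnac4. With the day as a block the counts of probe sets were 6 (13.2% of all), 6 (13.6%), 7 (11%), 10 (16.3%) and 10 (23.2%).

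The arrays of DMSO and untreated cells did not overlap for 6, 4, 7, 8 and 8 of the 21, against 11.5%, 10.9%, 10.8%, 13.2% and 16.3% of all. The median difference was -0.08, 0.13, 0.05, 0.12 and 0.07, and that of all probe sets between -0.01 and 0.01. The untreated arrays serve all 5 of these comparisons. As a description, 57.1% of the 21 probe sets had group means spanning at least 1 log2 unit, against 24.9% of all, and 4.76% of them were dim, against 44% of all.

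**Figure D3:**
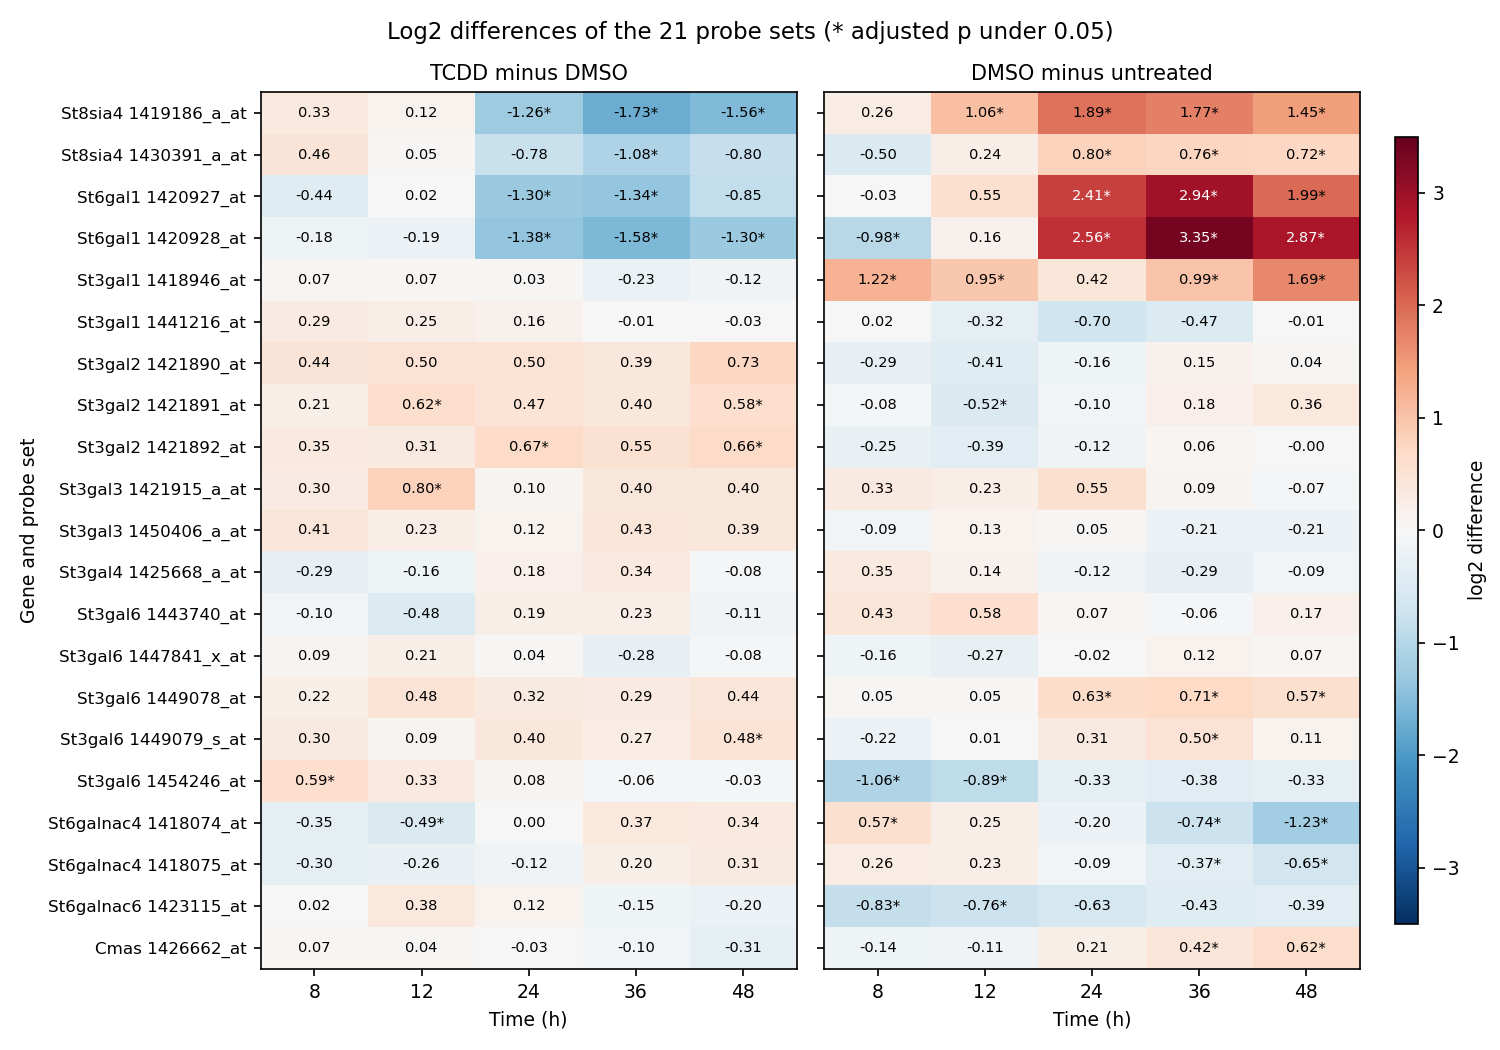
Log2 differences of the 21 probe sets (rows) at 5 times in hours (columns), TCDD minus DMSO on the left and DMSO minus untreated on the right; colour and number give the difference and an asterisk an adjusted p below 0.05 in limma. The St8sia4 and St6gal1 rows are blue (lower) from 24 h on at the left and red (higher) at the right, down to -1.73 and up to 3.35.

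The genes whose 11 group means were most like those of St8sia4 at 1419186_a_at, among 9135 probe sets spanning at least 1 log2 unit, were Sgms1 at 2 dim probe sets (Pearson r of 0.916 and 0.886), Prxl2c (0.860), Atp8b3 (0.854) and Aldh4a1 (0.853). Prxl2c averaged 9.28 in TCDD cells and 10.16 in DMSO cells at 36 h. These values describe likeness over 11 groups only.

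The surrounding pathway was read from 4 lists, each gene by its brightest probe set. Of 11 other sialyltransferases 6 were above the dim level, and limma called none of the 11 between TCDD and DMSO cells at any time. Of all probe sets between 1.03% and 2.36% were called at the 5 times, so few calls would be looked for in so short a list. At an unadjusted p below 0.05 there were 1, 1, 2, 3 and 1 at the 5 times. The share of all probe sets below that p was not counted, so these and the like counts below are a description only. With the day as a block St8sia6, a sialyltransferase that extends O-glycans, was called higher in TCDD cells by 0.41, 0.40 and 0.48 at 24, 36 and 48 h (adjusted p = 0.0137, 0.0210 and 0.00307). St8sia6 was lower in DMSO than in untreated cells at the same times, with differences of -1.20, -1.25 and -1.06 (limma adjusted p = 1.36e-07, 3.44e-08 and 4.28e-07). St3gal5, which makes the ganglioside GM3, was higher in DMSO cells by 1.31 at 12 h, 1.10 at 36 h and 1.28 at 48 h, and the first 2 calls were lost without the 4 arrays standing apart (0.82 and 0.79).

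Of 12 genes of sialic acid synthesis, transport and removal 10 were above the dim level. Limma called none between TCDD and DMSO cells (2, 1, 1, 2 and 3 at an unadjusted p below 0.05), against 1.03% to 2.36% of all probe sets. With the day as a block there were 0, 1, 1, 2 and 0, where between 2.03% and 4.46% of all probe sets were called. In DMSO cells 4 were higher (9.54% of all probe sets) and 1 lower (9.75%) than in untreated cells at 48 h. Among the higher were Gne (1.01 ± 0.15), the enzyme that starts sialic acid synthesis, and Nans (0.90 ± 0.09), which makes the phosphorylated sugar (limma adjusted p = 1.57e-06 and 1.03e-09). Nans was also higher at 36 h (0.64).

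Of 18 enzymes that build the chains sialic acid is put on, 17 were above the dim level. Mgat4a, an N-glycan branching enzyme, was higher in TCDD cells by 1.00 ± 0.10 at 8 h and by 0.78 ± 0.10 at 12 h (limma adjusted p = 2.59e-08 and 2.81e-06). It was the only call of the list at these times, where 0.753% and 1.6% of all probe sets were called higher. At 48 h limma called 0 of the 18 (2.36% of all probe sets), with 3 at an unadjusted p below 0.05. It called 1 higher in TCDD cells at 24 h (1.47% of all), and 1 higher (0.921%) and 1 lower (0.415%) at 36 h. The lower one was B4galt6, a galactosyltransferase (-0.50 at 36 h, adjusted p = 0.0285), lost in 8 of 12 settings that left out an array or a day (-0.55 to -0.40). B4galnt1, a ganglioside enzyme, was higher in TCDD cells by 0.76 at 24 and 36 h (0.0166 and 0.0259), and each call was lost in 8 of 12 settings that left out an array or a day (0.70 to 0.75 at 24 h and 0.68 to 0.78 at 36 h). Calls in DMSO against untreated cells were 1 higher and 2 lower at 8 h (4.96% and 4.71% of all probe sets) and 1 and 2 at 12 h (4.88% and 5.12%). They were 4 and 3 at 24 h (4.01% and 3.62%), 5 and 2 at 36 h (6.08% and 6.19%) and 5 and 3 at 48 h (9.54% and 9.75%). Mgat5, another branching enzyme, had differences of -1.91 at 36 h and -1.53 at 48 h (limma adjusted p = 5.69e-09 and 2.57e-07).

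Of 10 receptors that bind sialic acid or sialylated ligands 4 were above the dim level. Limma called none between TCDD and DMSO cells (1, 1, 2, 2 and 2 at an unadjusted p below 0.05), against 1.03% to 2.36% of all probe sets. With the day as a block Cd22 was called lower in TCDD cells, by a difference of -0.62 at 24 h (0.0300, against 0.120). In DMSO cells Cd22, the receptor for the cap made by St6gal1, had differences from untreated cells of -1.98, -2.40, -2.44, -2.56 and -2.17 at 8, 12, 24, 36 and 48 h (limma adjusted p between 3.03e-12 and 2.07e-09). Siglecg, a related inhibitory receptor of B cells, had differences between -1.66 and -1.44. Cd22 is also 1 of the 8 measured B cell markers. Of these 4, 4, 4, 5 and 4 were called lower and 0, 0, 0, 1 and 1 higher in DMSO than in untreated cells. Of all probe sets between 3.62% and 9.75% were called lower and between 4.01% and 9.54% higher. Selplg, a sialylated ligand of selectins that was kept on this list, was above untreated cells by 1.44, 1.83 and 2.18 at 24, 36 and 48 h.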

How the data were processed

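Gene expression was measured on 44 single-colour Affymetrix Mouse 430 2.0 arrays. Per the submitters' processing notes GCOS 1.0 produced the deposited signal intensities, which are linear. Each column averages 500 once its lowest and highest 2% are left out, a scaling by the authors. Sources used here give no further step. Log2 column medians ran from 5.93 to 6.85, so intensities were quantile normalised and turned into log2(value + 16), which flattens low signals. Of 45101 probe sets 64 controls were left out and none was filtered for low signal.

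A limma 3.58.1 fit (R 4.3.3) of 11 group means over all arrays gave two-sided, Benjamini-Hochberg adjusted tests. Its p-values cover the spread between cultures of 1 line only, and 4 arrays per group limit the precision. Per the series' design text a replicate number is a day, so the numbers pair the arrays. Same-numbered arrays had deviations from their group means with a median correlation of 0.0885 (other arrays -0.0319), and 12 of 20 pairs exceeded 0.1. Alternatives were a fixed and a random block for the day, values as deposited, an intensity trend, pseudocounts of 1 or 64, dim probe sets filtered out, only the arrays compared, 1 probe set per gene or their mean, and leaving out each array or day. Leaving out the 4 arrays standing apart was chosen after seeing the data.

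The members, gene lists and marker lists were chosen with earlier results of these data known. All members were described. From each list up to 4 called genes per comparison could be named, by size, while St8sia6 and Cd22 under TCDD were named after their values were seen. Of the probe sets 34945 have 1 gene symbol, 932 several and 9160 none. Of the steps, only the limma fit was tested on simulated data. These had independent noise, no day effect and known changes in TCDD cells at 24 h alone. Plots used matplotlib 3.10.9 (Python 3.11.15).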

Additional observations from a re-analysis of the deposited data

Results flagged for a closer look

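The difference between TCDD and DMSO cells varied with time, by limma's F test of the interaction, for St8sia4 at 1419186_a_at (adjusted p = 1.75e-06) and 1430391_a_at (0.0214), for St6gal1 at 1420928_at (0.00340) and for St6galnac4 at 1418074_at (0.000630).

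In 17 of the 231 groups of 4 levels, 1 array lay far from the other 3 by Dixon's criterion, which chance alone meets in about 1 of 20 groups. St8sia4 1419186_a_at was high in DMSO 12 h replicate 1 (10.91). St6gal1 was low in untreated 0 h replicate 3 at 1420927_at (5.61) and high in TCDD 36 h replicate 4 at 1420928_at (10.93). St3gal1 1441216_at was low in TCDD 24 h replicate 4 (4.59). St3gal2 1421891_at was high in replicate 2 of TCDD cells at 12 h (9.68) and at 48 h (10.41). St3gal3 1421915_a_at was high in TCDD 24 h replicate 3 (7.58) and low in DMSO 12 h replicate 4 (5.97), and 1450406_a_at was low in DMSO 8 h replicate 2 (8.12) and high in DMSO 24 h replicate 4 (8.55).

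St3gal6 accounted for the remaining 7. The dim probe set 1443740_at was high in replicate 3 of TCDD cells at 8 h (5.31) and 48 h (4.66) and of DMSO cells at 24 h (4.81). Probe set 1447841_x_at was high in DMSO 12 h replicate 4 (9.69), and 1449078_at was low in DMSO 8 h replicate 3 (10.74). Probe set 1449079_s_at was high in replicate 3 of TCDD cells at 12 h (11.10) and low in it at 48 h (11.24). Of the 17 values, 1 is from untreated 0 h replicate 3 and 2 are from DMSO 12 h replicate 4, which are among the arrays standing apart in technical measures.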

How the results depend on the processing

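Of 78 pairs of probe set and comparison that were called in at least 1 setting, 51 were called in the analysis reported. Over 1131 alternatives of these 51, 922 kept the call, 209 lost it and 0 changed sign. Values as deposited, without quantile normalisation, ended calls of St6gal1 1420927_at, St3gal2, St3gal3 and St6galnac6. A pseudocount of 1 ended calls of St6gal1 1420927_at, St3gal3 and St6galnac6. The fit of only the arrays compared ended calls of St8sia4 1430391_a_at, St6gal1, St3gal2, St3gal3, St3gal6, St6galnac4, St6galnac6 and Cmas. The number of member probe sets called between TCDD and DMSO cells moved as follows. Beside the ranges with 1 left out, mainly the larger changes are listed, here and in the counts that follow. At 8 h (1 called) it was 2 with the replicate block, 0 with only the arrays compared, 2 without the 4 arrays standing apart and 0 to 1 with 1 array or day left out. At 12 h (3) it was 5 with the replicate block, 0 with only the arrays compared and 0 to 3 with 1 left out. At 24 h (4) it was 7 with the fixed and with the random block, 2 with only the arrays compared and 2 to 3 with 1 left out. At 36 h (4) it was 2 to 4 with 1 left out, and the other settings made only small changes, such as 5 with the replicate block. At 48 h (5) it was 8 with dim probe sets filtered out, 9 with the fixed and 8 with the random block, 1 with only the arrays compared and 2 to 5 with 1 left out. Between DMSO and untreated cells the counts with only the arrays compared were 3 at 8 h, 2 at 12 h, 3 at 24 h and 5 at 36 h, and without the 4 arrays 3 at 24 h; with 1 left out they were 4 to 5, 3 to 6, 3 to 6, 7 to 10 and 7 to 10 at the 5 times. The interaction count (4) was 2 to 5 with 1 left out. With only the arrays compared the fit has fewer arrays to estimate the spread; the cause of the other changes was not tested. The sign changed in 2 values, both on averaging the probe sets of 1 gene: St3gal1 in DMSO against untreated cells at 24 h (-0.14) and B4galt3 at 48 h (-0.035). The 69 calls of other pathway genes kept their call in 1360 of 1586 alternatives. The replicate block ended no call of a member.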
